A study of Mus musculus with 36 samples.

Results

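The genes described here encode secreted lipocalins of the nose: the major urinary protein genes Mup4 and Mup5, the lipocalin genes Lcn3, Lcn4 and Lcn11, and the odorant binding protein genes Obp2a and Obp2b. They were taken from a list of 8 names, of which Lcn13 is an older symbol of Obp2a and Lcn14 an older symbol of Obp2b, so that the list holds 7 distinct genes of 24690 genes in the files. Their RNA was measured in 36 libraries from the main olfactory epithelium (MOE), the vomeronasal organ (VNO) and the olfactory bulb (OB) of C57BL/6 mice, with 12 libraries per tissue. In each tissue there were 4 groups of 3 libraries, 2 of mice housed with their own sex, females (SF) and males (SM), and 2 of mice housed with both sexes, females (CF) and males (CM). All mice were weaned at 3 weeks, kept with 4 animals per cage and killed at 6 months. SF and SM mice lived in rooms that held their own sex alone, whereas CF and CM mice shared cages of 2 females and 2 males, from which newborn pups were removed. Every library was made from RNA pooled from several mice, 2 by the sample descriptions and 3 by the methods, so that a replicate is a pool and the p-values below measure the spread between pools. By the paper, all 3 tissues were taken from each mouse, so that libraries of different tissues are not independent.

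Lipocalins are small secreted proteins that fold into a barrel around a pocket for hydrophobic molecules. In the nose they are made by glands and secreted into the mucus, where they are thought to carry odorants and pheromones to or from the sensory neurons. Lcn3 and Lcn4 are also known as the vomeronasal secretory proteins, and Obp2a and Obp2b lie beside Lcn3 and Lcn11 in a lipocalin cluster on chromosome 2. Mup4 and Mup5 belong to the major urinary protein cluster on chromosome 4, most members of which are made in the liver and excreted in urine as carriers of volatile pheromones.

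In mm9, the mouse build of the files, the cluster on chromosome 2 held Obp2a (RefSeq NM_153558, chr2:25555594-25558846), Obp2b (NM_001099301, chr2:25592529-25595617), Lcn3 (NM_010694, chr2:25621089-25623619) and Lcn11 (NM_001100455, chr2:25632537-25635799). Lcn4 (NM_010695) lay further along the chromosome at chr2:26523194-26526802. Mup4 (NM_008648) was placed at chr4:59969678-59973537 and Mup5 (NM_008649) at chr4:61492353-61496214.

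The coding sequences show the family resemblance and how far reads of one gene could be mistaken for another. Each of the 7 genes held exactly 1 in-frame match to GGNNNNTGG, which encodes the glycine, any residue and tryptophan that mark the start of the lipocalin barrel. The 60 coding bases around it are shown for 6 of the genes, from GENCODE M21 transcripts on GRCm38, counted from the first base of the start codon, with the match in capitals.
Mup4 (coding bases 76 to 135): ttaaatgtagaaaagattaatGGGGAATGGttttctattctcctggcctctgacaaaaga
Mup5 (coding bases 82 to 141): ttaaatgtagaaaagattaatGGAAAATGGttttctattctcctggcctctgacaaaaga
Lcn11 (coding bases 82 to 141): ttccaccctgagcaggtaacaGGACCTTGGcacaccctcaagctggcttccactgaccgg
Obp2a (coding bases 73 to 132): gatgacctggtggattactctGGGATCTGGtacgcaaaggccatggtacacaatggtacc
Lcn3 (coding bases 91 to 150): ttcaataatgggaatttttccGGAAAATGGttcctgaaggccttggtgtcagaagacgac
Lcn4 (coding bases 79 to 138): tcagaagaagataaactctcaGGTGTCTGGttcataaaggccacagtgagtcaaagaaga
Mup4 and Mup5 were identical at 93.1% of aligned coding bases, and Obp2a and Obp2b at 74.6%. All other pairs were identical at 50.8% to 63.5%. Of the 50-base stretches in a transcript, which is the length of a read, 12.4% in Mup4, 17.1% in Mup5, 11.7% in Obp2a and 11.9% in Obp2b also occurred in another gene, mostly in the partner named. No such stretch was shared for Lcn3, Lcn4 or Lcn11. How Cufflinks divided reads between such pairs could move the values of Mup4, Mup5, Obp2a and Obp2b, so that ratios within these pairs are uncertain.

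The 80 bases before the start of each gene are shown for the 6 genes with an entry in the promoter table of RefSeq (GRCm38.p6), since members of the family varied together across libraries as described below. Capitals mark TATAAA, which was searched for on both strands.
Mup4 (chr4:59960668-59960747, minus strand): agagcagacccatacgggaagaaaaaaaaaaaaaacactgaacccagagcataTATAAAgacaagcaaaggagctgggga
Lcn11 (chr2:25776937-25777016, plus strand): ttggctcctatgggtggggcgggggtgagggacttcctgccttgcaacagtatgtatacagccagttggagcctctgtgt
Obp2a (chr2:25699994-25700073, plus strand): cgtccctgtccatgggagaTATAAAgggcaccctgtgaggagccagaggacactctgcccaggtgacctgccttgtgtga
Obp2b (chr2:25736927-25737006, plus strand): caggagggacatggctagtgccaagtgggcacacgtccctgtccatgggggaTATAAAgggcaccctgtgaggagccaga
Lcn3 (chr2:25765453-25765532, plus strand): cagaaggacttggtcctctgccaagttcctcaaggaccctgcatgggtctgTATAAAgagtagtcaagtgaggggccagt
Lcn4 (chr2:26671283-26671362, minus strand): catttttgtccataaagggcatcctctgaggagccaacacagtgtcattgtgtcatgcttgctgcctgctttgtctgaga
TATAAA was found on the gene strand before Mup4, Obp2a, Obp2b and Lcn3 and on neither strand before Lcn11 and Lcn4. Of all 32851 promoters in the table, 3.37% held it on the gene strand in the same window and 4.75% on either strand. The genes that hold this motif were Mup4, which was higher in MOE than in VNO, and Obp2a, Obp2b and Lcn3, which were higher in VNO.

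The deposited values are FPKM, that is fragments per kilobase of transcript scaled by sequencing depth, and all levels below are FPKM. Estimated fragments on listed genes ranged from 3015427 to 5866058 per library in MOE, from 3372278 to 6430724 in VNO and from 3250825 to 6007191 in OB. The summed FPKM of 7 olfactory sensory neuron markers was 1539 to 2752 in MOE and 112 to 175 in VNO, and that of 6 vomeronasal sensory neuron markers was 15.7 to 21.6 in MOE and 107 to 134 in VNO, so that both tissues carried the markers of their labels. Single libraries stood apart. MOE-SF2 had the highest level of 5 of the 7 genes in MOE, OB-SM2 had the highest level of 5 of the 7 in OB, and MOE-CM3 had the lowest sum of olfactory sensory neuron markers. Results that rest on one of these libraries are given with and without it. In tissue extracts, fewer cells of a type and less RNA per cell cannot be told apart.

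The 7 genes fell into 2 tissue patterns. Obp2a, Obp2b, Lcn3 and Lcn4 were higher in VNO than in MOE, whereas Mup4, Mup5 and Lcn11 were higher in MOE than in VNO, and all were near 0 in most OB libraries. Among 20624 protein-coding genes ranked by mean FPKM in VNO, Obp2a had rank 1, Obp2b rank 2, Lcn3 rank 3 and Lcn4 rank 5. In MOE the ranks were 5 for Obp2a, 7 for Mup4, 12 for Lcn11, 13 for Obp2b, 20 for Lcn3, 22 for Mup5 and 35 for Lcn4.

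**Figure D1:**
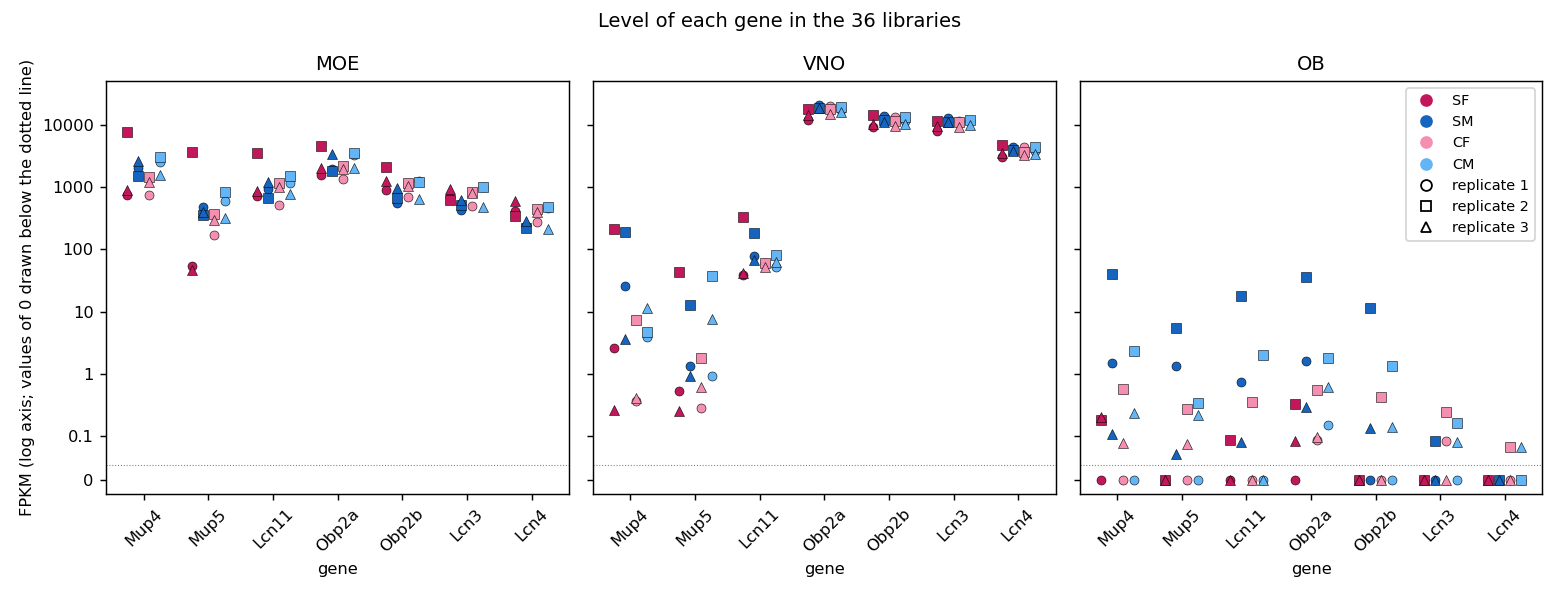
Level of each gene in every library, in FPKM on a log axis, with 1 point per library, colours for the 4 groups and marker shapes for the replicate number; values of 0 are drawn below the dotted line. Obp2a, Obp2b, Lcn3 and Lcn4 lie at or above 3063 FPKM in all 12 VNO libraries, Mup4 spreads from 0.26 to 209 FPKM there, and in OB the SM library of replicate 2 lies above all others for 5 genes.

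Between MOE and VNO, the log2(FPKM + 0.5) difference was -3.98 ± 0.12 (SE) for Lcn3, -3.48 ± 0.11 for Lcn4, -3.58 ± 0.33 for Obp2b and -2.89 ± 0.36 for Obp2a. It was 7.91 ± 0.73 for Mup4, 6.72 ± 0.66 for Mup5 and 3.78 ± 0.42 for Lcn11, where a positive value means a higher level in MOE. All 7 differences had an adjusted p under 0.05 in limma over 14627 genes and 36 libraries, with adjusted p-values from 2.72e-23 for Lcn3 to 1.83e-08 for Obp2a. Of all genes tested, 82.6% passed the same threshold between these tissues, so that the calls alone say little about the family, and the sizes of the differences are the result. All 7 genes were also called between MOE and OB, where 85.1% of genes were, and between VNO and OB, where 85.8% were. These comparisons took the 36 libraries as independent, although the tissues came from the same mice.

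Obp2a, an odorant binding protein gene, was the most abundant of the 4 vomeronasal genes, with 17167 ± 2547 FPKM (mean ± SD, n = 12) in VNO and 2445 ± 958 in MOE. By library in VNO it was 11730.0, 17729.6 and 14326 in SF libraries, 20472, 18264 and 18654 in SM libraries, 19950.5, 17482 and 15060.4 in CF libraries and 16855, 19477 and 15997 in CM libraries. The groups SF and SM did not overlap, with SF lower, as for 13.0% of all genes tested in VNO, while CF and CM did overlap.

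Obp2b, its neighbour, had 11582 ± 1679 FPKM in VNO and 1027 ± 414 in MOE. By library in VNO it was 9107, 14409 and 10327 in SF libraries, 13806, 11645 and 11041 in SM libraries, 13004, 11349 and 9559.7 in CF libraries and 11219.7, 13121 and 10399 in CM libraries. All 4 groups overlapped.

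Lcn3 had 10726 ± 1342 FPKM in VNO and 703 ± 212 in MOE, and by library in VNO it was 7892, 11407 and 9575 in SF libraries, 12700.3, 11133 and 11048 in SM libraries, 11343, 10998 and 9125 in CF libraries and 11449.5, 12049 and 9997 in CM libraries. Lcn4 had 3854 ± 509 FPKM in VNO and 361 ± 121 in MOE, and by library in VNO it was 3063, 4648 and 3539.6 in SF libraries, 4441, 3957 and 3786 in SM libraries, 4415, 3697 and 3265 in CF libraries and 3724, 4323 and 3389 in CM libraries. The highest and lowest of the 12 VNO libraries differed by 1.75-fold for Obp2a, 1.58-fold for Obp2b, 1.61-fold for Lcn3 and 1.52-fold for Lcn4. The library VNO-SF1 was lowest for all 4 of these vomeronasal genes. By the paper, it also had the lowest share of aligned reads and the shortest mean insert of the VNO libraries, and the part of library quality in these values was not tested.

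In MOE the same 4 genes were lower and more variable. Obp2a was 1551, 4462 and 2002 in SF libraries, 1943, 1819 and 3346 in SM libraries, 1334, 2183 and 1938 in CF libraries and 3310.3, 3474 and 1984 in CM libraries. Obp2b was 905, 2078 and 1225 in SF libraries, 547, 659.6 and 977 in SM libraries, 688, 1139.9 and 1018 in CF libraries and 1244, 1202 and 636 in CM libraries. MOE-SF2 was the highest library for both, and the other 11 libraries ranged from 1334 to 3474 for Obp2a and from 547 to 1244 for Obp2b.

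For the vomeronasal secretory protein genes, the MOE levels of Lcn3 were 692, 626 and 939.8 in SF libraries, 426, 504 and 620.2 in SM libraries, 491, 828 and 808 in CF libraries and 1014, 1008 and 484 in CM libraries. Those of Lcn4 were 405, 344 and 599 in SF libraries, 237.2, 219 and 281 in SM libraries, 269, 436 and 398 in CF libraries and 459, 474 and 213 in CM libraries. Every SF library was above every SM library for both genes, as for 7.62% of all genes tested, and CF and CM overlapped. MOE-SF2 was in the middle of the range for both, seventh from the highest of 12.

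Mup4 had 2151 ± 1857 FPKM in MOE (n = 12) and 38.2 ± 75.7 in VNO. In MOE it was 749.5, 7547 and 903 in SF libraries, 2033, 1477 and 2589 in SM libraries, 749, 1465 and 1199 in CF libraries and 2530.0, 3019.8 and 1545 in CM libraries. Apart from MOE-SF2, the female libraries lay between 749 and 1465 FPKM and the 6 male libraries between 1477 and 3020, so that 5 of 6 female libraries were below every male library. MOE-SF2 was set aside here after its values had been seen, and 0.0727% of all genes tested in MOE had the other 5 female libraries below all 6 male libraries. In sex-combined mice, the CF libraries were all below the CM libraries, as for 0.313% of all genes tested.

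Mup5 was lower than Mup4 in every MOE library and varied most, with 634 ± 990 FPKM. In MOE it was 52.9, 3698 and 46.9 in SF libraries, 484, 351 and 393 in SM libraries, 167, 362 and 289.9 in CF libraries and 599, 841 and 321 in CM libraries. MOE-SF1 and MOE-SF3 held the lowest values and MOE-SF2 of the same group the highest, 78.8-fold above the lowest. The other 5 female libraries ranged from 46.9 to 362 FPKM and the 6 males from 321 to 841.

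Lcn11, a lipocalin gene next to Lcn3, had 1166 ± 796 FPKM in MOE and 92.7 ± 84.7 in VNO. In MOE it was 723, 3541 and 846 in SF libraries, 932, 668 and 1177 in SM libraries, 515, 1159.9 and 1003 in CF libraries and 1143, 1505 and 777 in CM libraries. The 4 groups overlapped and MOE-SF2 was again the highest.

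Together the 7 genes made up 1.04% to 2.97% of all FPKM in the MOE libraries other than MOE-SF2 (median 1.84%, 11 libraries), 7.02% to 13.2% in VNO (median 12.2%, 12 libraries) and at most 0.0294% in OB. In MOE-SF2 they made up 5.87%. When the fragments estimated from the confidence limits were used in place of FPKM, these shares were 5.11% in MOE-SF2, a median of 1.62% in the other MOE libraries and a median of 10.4% in VNO.

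**Figure D2:**
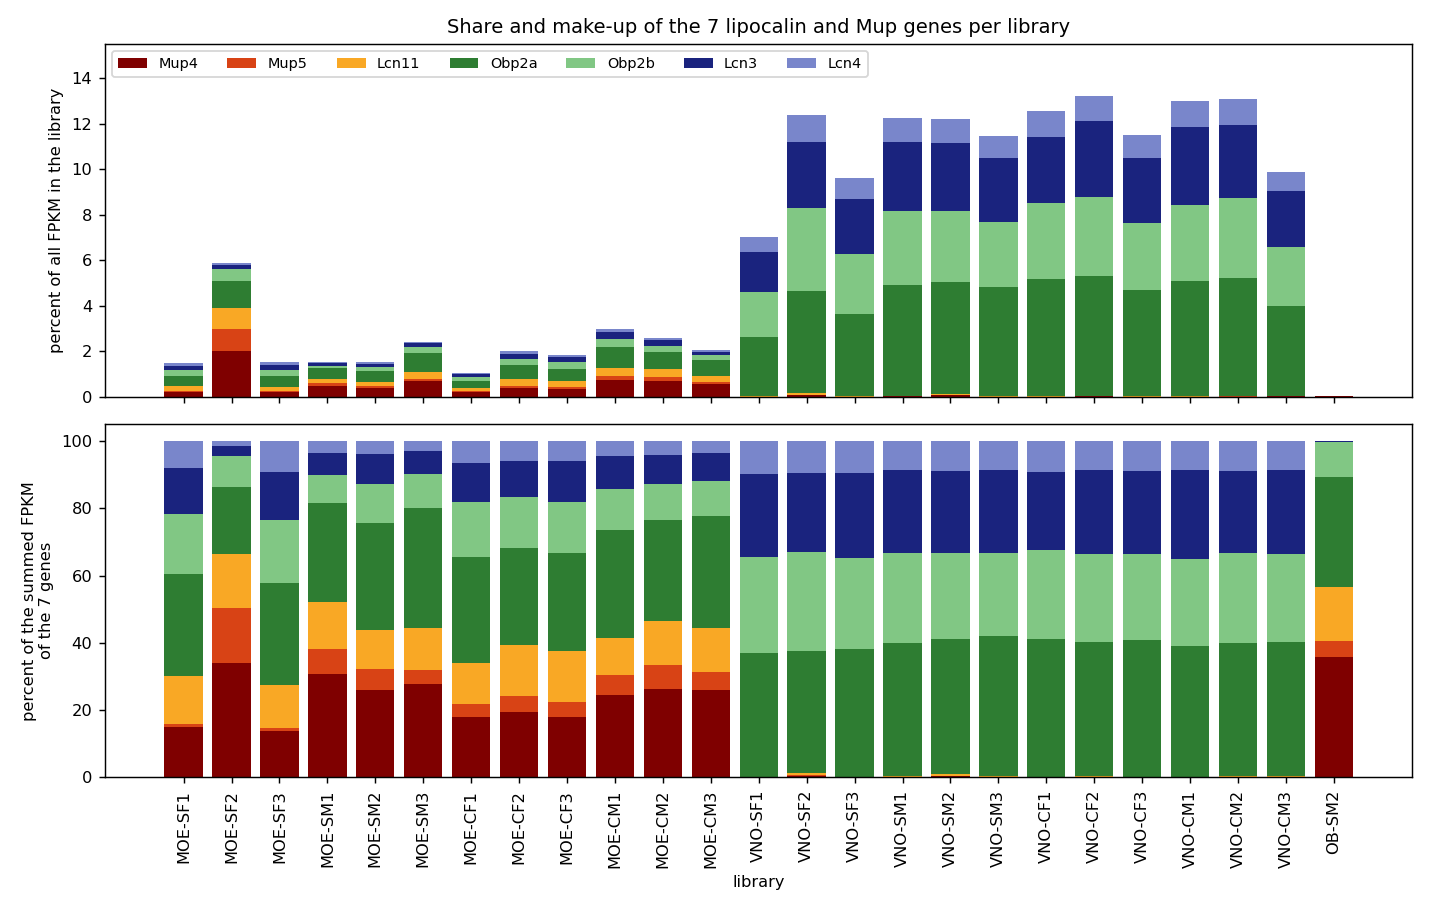
Share of the 7 genes in all FPKM of a library (upper panel, percent) and make-up of their summed FPKM (lower panel, percent), with 1 bar per library for MOE, VNO and the OB library OB-SM2. MOE-SF2 reaches 5.87% against at most 2.97% in the other MOE libraries, the VNO bars are made almost wholly of Obp2a, Obp2b, Lcn3 and Lcn4, and OB-SM2 holds almost no Lcn3 or Lcn4.

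The excess in MOE-SF2 did not fall evenly on the family. Against the median of the other 11 MOE libraries, Mup5 was 10.5-fold, Mup4 5.11-fold, Lcn11 3.80-fold, Obp2a 2.25-fold and Obp2b 2.13-fold higher, and each of these 5 was above the highest of the other libraries. Lcn3 was at 0.905 and Lcn4 at 0.864 of the median, inside the range of the others. Of the summed difference from those medians, Mup4 made up 39.2%, Mup5 21.6%, Lcn11 16.9%, Obp2a 16.0% and Obp2b 7.11%, and Lcn3 and Lcn4 reduced it slightly. The odorant binding protein genes Obp1a and Obp1b on the X chromosome were 5.09-fold and 6.21-fold higher in that library, at 22178 and 12447 FPKM.

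Marker values moved with this library. The summed FPKM of 14 markers of nasal and Bowman's glands was 11803 in MOE-SF2, 0.863 of the median of the other MOE libraries and inside their range. Of these 14 markers, 4 were above every other MOE library, namely Ltf (lactoferrin, 316 against at most 274), Bpifb9a (1494 against at most 365), Odam (24.2 against at most 7.26) and Smr3a (1.09 against at most 0.125), and Bpifb9b, a close copy of Bpifb9a that Cufflinks did not quantify successfully in every MOE library, was listed at 0 there. In other MOE libraries Bpifb9b reached up to 1378 FPKM. Aqp5 was below every other MOE library, at 20.9 against at least 23.9. Scgb1c1 and Bpifa1, also in the list of 14, were at 6051 and 3811 FPKM, below medians of 7461 and 5001. The sum of 7 olfactory sensory neuron markers was 1788, which is 0.725 of the median of the others. The part of gland content or dissection in these values was not tested.

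**Figure D3:**
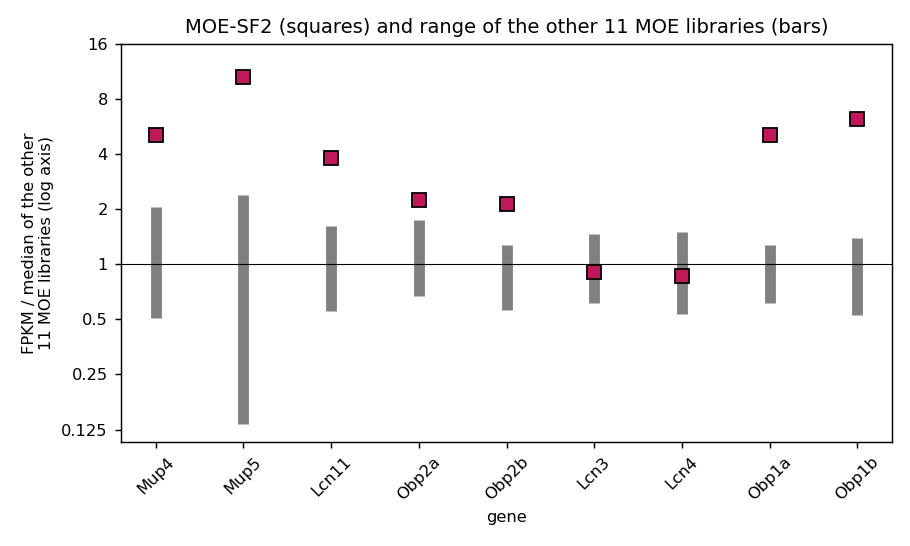
FPKM in MOE-SF2 (squares) divided by the median of the other 11 MOE libraries, on a log axis, with grey bars for the range of those 11 libraries, for the 7 genes and for Obp1a and Obp1b. The squares lie above the bars for Mup4, Mup5, Lcn11, Obp2a, Obp2b, Obp1a and Obp1b and inside them for Lcn3 and Lcn4.

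The design asks whether sex and housing changed these genes. In limma on log2(FPKM + 0.5), with the 12 libraries of a tissue in 1 fit, 0 of 7 genes had an adjusted p under 0.05 in any of 6 comparisons in MOE, where the share of all 13757 genes called was 0.102% for SF against SM, 0.0436% for CF against CM, 0.0727% for females against males over both housings, 0.0363% for the interaction of sex and housing, 0.0509% for SF against CF and 0.0654% for SM against CM. In the first of these 2 of the 7 genes, Lcn4 and Obp2b, had an unadjusted p under 0.05, as did 4.16% of all genes, and 0 in the other 5 comparisons, where the shares of all genes were 1.75%, 1.86%, 4.59%, 2.04% and 6.94%. In VNO 0 of 7 were called either, against 0.0722%, 0.0433%, 0.123%, 0%, 0% and 0% of 13849 genes in the same order of comparisons. At an unadjusted p under 0.05 there were also 0 of 7 in VNO, against 8.8%, 3.94%, 6.72%, 5.26%, 11% and 2.33% of all genes. Few genes of any kind passed in these comparisons, so that a count of 0 is not particular to the lipocalins.

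Between SF and SM in MOE, Lcn4 was higher in females by 0.84 ± 0.33 (log2, SE; limma adjusted p = 1) and Obp2b by 0.90 ± 0.37 (limma adjusted p = 1). Without MOE-SF2 the difference of Lcn4 was 1.01 and that of Obp2b was 0.58. The SF libraries were above the SM libraries without overlap for Lcn3 and Lcn4, as for 7.62% of all genes tested. Between CF and CM the differences were 0.00 ± 0.33 for Lcn4 and -0.08 ± 0.37 for Obp2b, and the interaction did not pass for either gene (0.83 ± 0.46 and 0.99 ± 0.52, adjusted p = 0.999 in limma for both). These values depended on MOE-CM3, whose Lcn4 was 213 FPKM beside 459 and 474 in the other CM libraries. By the paper, this library had the lowest share of aligned reads and the shortest mean insert of the MOE libraries. Without it the CF minus CM difference was -0.37 ± 0.25 for Lcn4 and -0.40 ± 0.35 for Obp2b (limma adjusted p = 0.660 and 0.733), and the interaction was 1.21 ± 0.34 and 1.30 ± 0.48 (limma adjusted p = 0.188 and 0.245). Without MOE-CM3 the SM minus CM difference of Lcn3 went from -0.63 ± 0.33 to -0.98 ± 0.27 and that of Lcn4 from -0.55 ± 0.33 to -0.93 ± 0.25 (limma adjusted p = 0.400 for both without it).

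For Mup4, the CF libraries were below the CM libraries without overlap, with a log2 difference of -1.06 ± 0.62 (limma adjusted p = 1). Of all genes tested, 0.313% had CF below CM without overlap. Between SF and SM the difference was -0.20 ± 0.62 with all libraries and -1.27 ± 0.38 without MOE-SF2, and over both housings it was -0.63 ± 0.44 with all libraries and -1.16 ± 0.26 without MOE-SF2 (limma adjusted p = 0.276). Mup4 therefore did not pass the threshold in either case.

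For Mup5, the call depended on MOE-SF2. With all 12 libraries the female minus male difference was -0.95 ± 1.06 in sex-separated mice, -1.07 ± 1.06 in sex-combined mice and -1.01 ± 0.75 over both (limma adjusted p = 1 for all). Without MOE-SF2 it was -3.01 ± 0.39 in sex-separated mice (limma adjusted p = 0.00208, with 0.0799% of all genes called) and -2.04 ± 0.26 over both housings (adjusted p = 0.00162, with 0.0872% called), and it was the single member called in each. In the same fit Mup5 was lower in SF than in CF by -2.37 ± 0.39 (adjusted p = 0.0486, with 0.0363% called), and the interaction of sex and housing was -1.94 ± 0.52 (adjusted p = 0.907). These values rest on 2 SF pools at 52.9 and 46.9 FPKM, and without MOE-SF1 or MOE-SF3 in turn the SF minus SM difference was 0.04 and 0.13. MOE-SF2 was set aside after its values had been seen, so that the calls without it are a description and no support for a difference.

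**Figure D4:**
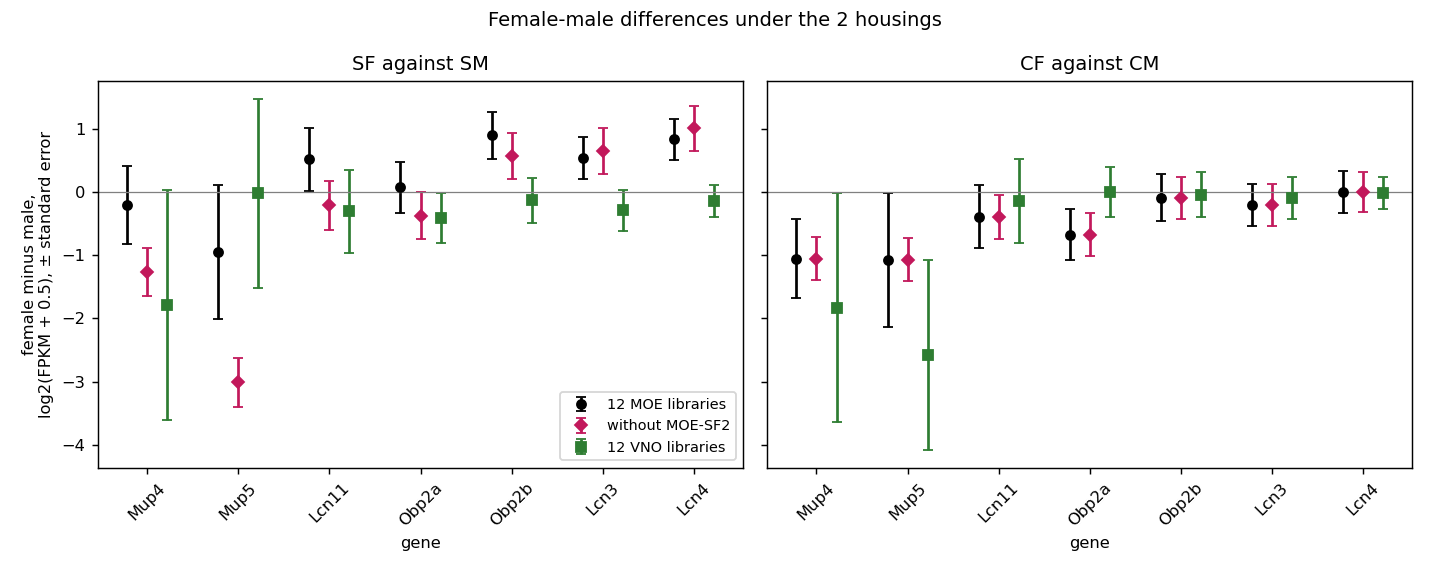
Female minus male differences of each gene under the 2 housings, on the log2(FPKM + 0.5) scale with standard errors from limma, for all 12 MOE libraries (circles), for MOE without MOE-SF2 (diamonds) and for all 12 VNO libraries (squares). Mup5 moves from -0.95 to -3.01 in the sex-separated panel when MOE-SF2 is left out, and Lcn4 lies at 0.84 there and at 0.00 in the sex-combined panel.

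In VNO the differences of the 4 abundant genes were small. Between SF and SM they were -0.41 ± 0.39 for Obp2a, -0.13 ± 0.35 for Obp2b, -0.29 ± 0.33 for Lcn3 and -0.13 ± 0.25 for Lcn4 (limma adjusted p from 0.747 to 0.920). Obp2a was lower in every SF library than in every SM library, as were 13.0% of all genes. Between CF and CM the same differences lay between -0.09 and 0.00.

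The ratio of Obp2a to Obp2b within a library did not overlap between the sexes in MOE. It was 1.63 to 2.15 in the SF libraries and 1.90 to 1.94 in the CF libraries, against 2.76 to 3.55 in the SM libraries and 2.66 to 3.12 in the CM libraries, so that all 6 female libraries, MOE-SF2 included, were below all 6 male libraries. The mean log2 ratio was 0.90 in females and 1.61 in males, a difference of -0.71 ± 0.09 (SE; two-sided exact permutation p = 0.00216, the smallest that 924 splits allow). This ratio was chosen after its values had been seen, and adjusted over the 42 ratios of members in MOE and VNO the p was 0.0909 (exact permutation test), which was also the smallest adjusted value a single ratio could reach. It was the single ratio of 21 in MOE whose sexes did not overlap, and 0 of 21 in VNO did so. In VNO the ratio was 1.23 to 1.39 in SF, 1.48 to 1.69 in SM, 1.53 to 1.58 in CF and 1.48 to 1.54 in CM libraries. Because 11.7% of the 50-base stretches of Obp2a also occur in Obp2b, part of each value depends on how shared reads were divided.

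The ratio of Mup4 to Mup5 set the SF libraries apart in MOE. It was 14.2 in MOE-SF1, 2.04 in MOE-SF2 and 19.2 in MOE-SF3, and 3.59 to 6.58 in the other 9 libraries. The ratio of Lcn3 to Lcn4 ranged from 1.57 to 2.30 in MOE and from 2.45 to 3.07 in VNO.

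In VNO, Mup4, Mup5 and Lcn11 were lower than in MOE and uneven between libraries. Lcn11, at rank 114 by mean FPKM among 20624 protein-coding genes, was at least 38.0 FPKM in all 12 libraries. Mup4 was 2.64, 209 and 0.26 in SF libraries, 25.4, 189 and 3.63 in SM libraries, 0.372, 7.26 and 0.405 in CF libraries and 3.93, 4.73 and 11.3 in CM libraries. Mup5 was 0.523, 43.0 and 0.25 in SF libraries, 1.32, 12.9 and 0.926 in SM libraries, 0.287, 1.77 and 0.612 in CF libraries and 0.932, 36.6 and 7.51 in CM libraries. Lcn11 was 38.0, 332 and 41.4 in SF libraries, 78.3, 185 and 68.2 in SM libraries, 61.1, 61.2 and 52.0 in CF libraries and 51.3, 80.3 and 62.7 in CM libraries. VNO-SF2 and VNO-SM2 held the highest Mup4 and Lcn11, while VNO-CM2 held the second highest Mup5 beside a Mup4 near the median of the VNO libraries.

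The ratio of Mup4 to Mup5 was 0.129 in VNO-CM2, from 79.1 and 640 estimated fragments, against a median of 4.01 over VNO. Obp1a and Obp1b, which were at 5663 ± 5294 and 2813 ± 3082 FPKM in MOE, moved with Mup4 in VNO. They stood at 1071 and 396 FPKM in VNO-SF2 and at 284 and 115 in VNO-SM2, against medians of 4.63 and 2.31 in the other 11 libraries. Markers of other cell types moved in both libraries, and not in the same way. In VNO-SF2, 6 bone and cartilage markers summed to 206 FPKM, the highest of the 12 and 1.68 times the median of the others, while the olfactory sensory neuron and ciliated cell markers were the lowest of the 12, at 0.728 and 0.710 of the median, and the gland markers were at 0.892.

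In VNO-SM2 the 14 gland markers summed to 5367 FPKM, the highest of the 12 and 1.26 times the median, with Muc5ac, Bpifa1, Odam and Scgb1c1 above every other library, and the 6 sustentacular cell markers were also the highest, at 1.31 times the median. The bone and cartilage markers were at 0.732 there. The part of these cell types in the levels of Mup4, Lcn11, Obp1a and Obp1b was not tested.

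In OB most values rested on a few fragments, and OB-SM2 stood far above the rest. That library held Mup4 at 39.4, Obp2a at 36.2, Lcn11 at 17.8, Obp2b at 11.6 and Mup5 at 5.37 FPKM, with Lcn3 at 0.0844 and Lcn4 listed at 0. In the other 11 OB libraries the highest values were 2.34 for Mup4, 1.80 for Obp2a, 2.01 for Lcn11, 1.32 for Obp2b and 1.32 for Mup5, and 3 fragments of Mup4 correspond to about 0.183 FPKM. OB-CM2 was next, with 39.5 estimated fragments of Mup4, 22.8 of Lcn11, 22 of Obp2a and 18 of Obp2b, and OB-SM1 had 14.7 of Mup4, 14.0 of Mup5 and 11.9 of Obp2a. In the other 9 OB libraries no member exceeded 9.6 fragments. All 7 genes were listed at 0 in OB-SF1.

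The make-up of the family in OB-SM2 was 35.7% Mup4, 32.6% Obp2a, 16.2% Lcn11, 10.6% Obp2b and 4.84% Mup5 of the summed excess over the other libraries. Lcn3 and Lcn4, which make up a large part of the family in VNO, were below the floor of 3 fragments there. Obp1a and Obp1b were also highest in OB-SM2, at 43.9 and 16.3 FPKM, and the 14 gland markers summed to 19.8 FPKM there, 2.67 times the median of the other OB libraries, with 3 of the 14 above every other library. Of that sum Bpifb9b made up 10.2 FPKM and its close copy Bpifb9a 2.25, against at most 1.90 and 0.407 elsewhere in OB, and the third was Sox10 at 4.38 against at most 4.28. Other gland markers were not raised, with Bpifa1 at 0.765 FPKM against a median of 1.68, Muc5ac at 0.00566 against 0.0127 and Dmbt1 listed at 0. The olfactory sensory neuron markers were at 1.06 times the median. The part of RNA from nasal tissue in this library was not tested.

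Of the 5 members that passed the filter in OB, Mup4, Mup5, Lcn11 and Obp2b did so only through OB-SM2. They were therefore tested because of a library of the group in which they were high, and their differences from SM are a description. Among the 5, 0 were called in any comparison, against 0.0391% of 12795 genes for SF against SM, 0.0469% for CF against CM, 0.0625% for females against males, 0.00782% for the interaction, 0.00782% for SF against CF and 0% for SM against CM. At an unadjusted p under 0.05 there were 4 of the 5 between SF and SM with 4.59% of all genes, 2 between females and males with 6.51%, and 1 between SM and CM with 3.4%, and for the reason given these counts are no support for a difference. Mup5 was listed at 0 in all 3 SF libraries and at 1.32, 5.37 and 0.0527 FPKM in the SM libraries, without overlap; 7.95% of all genes had SF below SM in this way. Without OB-SM2, Obp2a was the 1 member that still passed the filter, and its difference was -1.07 ± 0.50.

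Within MOE, the genes varied together in 2 sets, which were less distinct without MOE-SF2. Of the 42 pairs of members in MOE and VNO, 11 of 21 in MOE and 11 of 21 in VNO had an adjusted permutation p under 0.05 for Pearson's r over 12 libraries. The 12 libraries of a tissue come from 4 groups, so that differences between groups also enter these r and their p-values. The share of pairs of other genes that reach such values was not computed, so the counts are not a result about the family. In VNO, Kars, which is no lipocalin gene, had r = 0.958 with Obp2a, beside 0.950 for Lcn3. Mup4 varied with Mup5 (r = 0.924, permutation p = 2e-05; rho = 0.923, permutation p = 6e-05; adjusted p = 0.00018 and 0.00063), with Obp2a (r = 0.920, permutation p = 2e-05; rho = 0.846, permutation p = 0.001; adjusted p = 0.00018 and 0.0044) and with Lcn11 (r = 0.897, permutation p = 0.00014; rho = 0.790, permutation p = 0.0031; adjusted p = 0.00065 and 0.0087). Without the 2 libraries farthest from the median of Mup4, which were MOE-CF1 and MOE-SF2, these r were 0.898, 0.856 and 0.712.

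Lcn3 varied with Lcn4 (r = 0.930, permutation p = 3e-05; rho = 0.930, permutation p = 5e-05; adjusted p = 0.00018 and 0.00063), and r was 0.937 without the 2 farthest libraries. Mup4 had r = 0.078 with Lcn3 (permutation p = 0.82; rho = 0.098, permutation p = 0.77; adjusted p = 0.86 and 0.81) and r = -0.047 with Lcn4 (permutation p = 0.89; rho = -0.014, permutation p = 0.97; adjusted p = 0.89 and 0.99). Without MOE-SF2, Lcn3 had r = 0.633 with Lcn11 and 0.548 with Obp2a, against 0.317 and 0.406 over all 12 libraries. Mup5 went from 0.781 to 0.568 with Lcn11 and from 0.759 to 0.622 with Obp2a. Mup4 still had r = 0.862 with Mup5, 0.889 with Obp2a and 0.783 with Lcn11, and 0.186 with Lcn3. Obp2b lay between the sets. With the group means taken out, its r was 0.960 with Obp2a, 0.851 with Lcn11, 0.808 with Mup4 and 0.687 with Mup5. It was then 0.634 with Lcn3 and 0.515 with Lcn4. Over all 12 libraries, Obp2b had r = 0.805 with Lcn11 and 0.725 with Obp2a (adjusted permutation p = 0.0067 and 0.017). Without MOE-SF2 these were 0.628 and 0.568. Its r with Lcn3 was 0.690 (permutation p = 0.013; rho = 0.825, permutation p = 0.0016; adjusted p = 0.026 and 0.0055) and 0.973 without MOE-SF2, whereas its r with Mup4 was 0.550 (permutation p = 0.065; rho = 0.329, permutation p = 0.3; adjusted p = 0.12 and 0.33) and 0.171 without MOE-SF2.

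**Figure D5:**
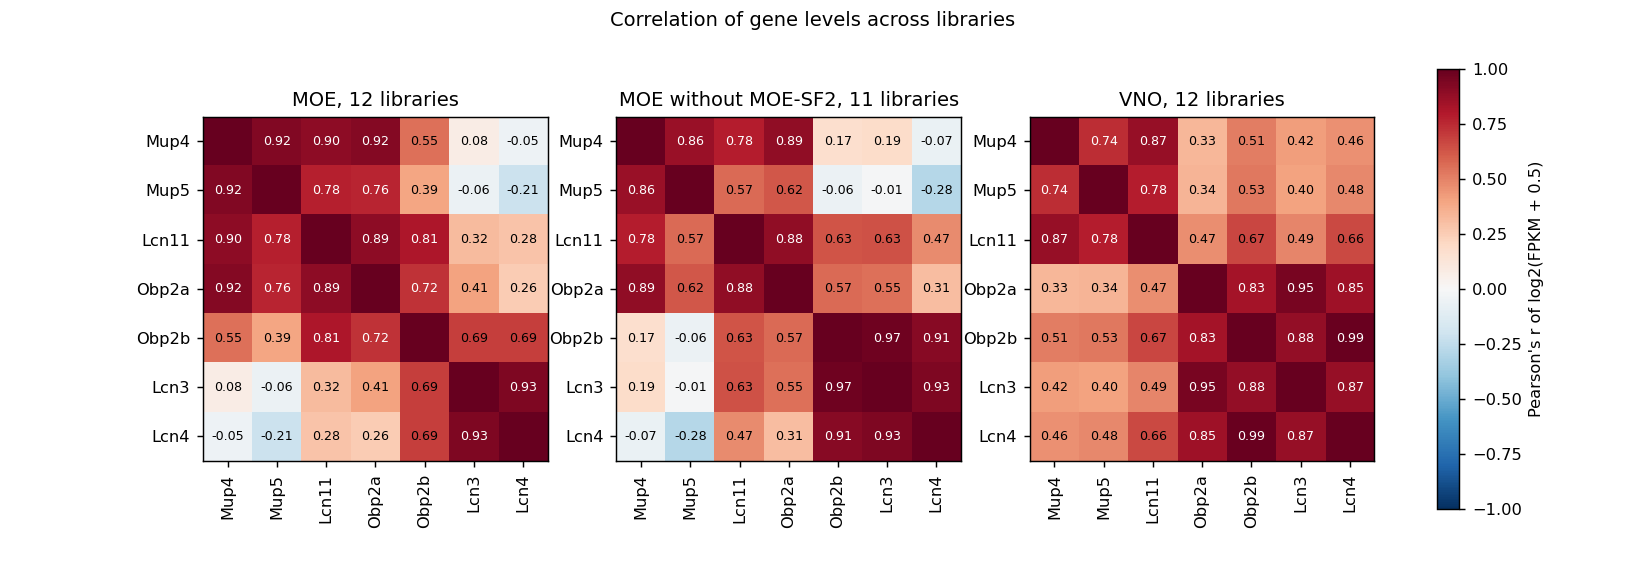
Pearson's r of log2(FPKM + 0.5) between each pair of genes across the 12 MOE libraries, the 11 MOE libraries without MOE-SF2 and the 12 VNO libraries, with red for positive and blue for negative values. Mup4, Mup5, Lcn11 and Obp2a form a block across the 12 MOE libraries, which is weaker without MOE-SF2 (r = 0.57 for Mup5 and Lcn11). Obp2b joins Lcn3 and Lcn4 once MOE-SF2 is left out (r = 0.97 and 0.91), and the 4 abundant genes form a block in VNO.

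In VNO the 4 abundant genes varied together. Lcn4 and Obp2b had r = 0.988 and rho = 0.958 (permutation p = 1e-05 for both, the smallest that 100000 resamples give; adjusted p = 0.00018 and 0.00042), and Lcn3 and Obp2a had r = 0.950 (permutation p = 3e-05; rho = 0.818, permutation p = 0.0021; adjusted p = 0.00018 and 0.0067). Without the 2 farthest libraries these were 0.980 and 0.883. Mup4 and Lcn11 had r = 0.871 (permutation p = 0.00055; rho = 0.804, permutation p = 0.0025; adjusted p = 0.0019 and 0.0076), which fell to 0.573 without VNO-SF2 and VNO-SM2 and so rested in part on these libraries. Levels of 1 library share its depth and its scaling, which can make abundant genes vary together.

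The genes whose levels followed Obp2a most closely over the 12 MOE libraries were Aldh3b2 (r = 0.86), the secretoglobin gene Scgb1b27 (0.848), the nuclease gene Dnase1 (0.844), Scgb2b27 (0.842) and Bglap3 (0.831), by Pearson's r of log2 values among 13757 genes. In VNO they were Kars (0.958), which encodes a transfer RNA synthetase, Acpp (0.931), the lipocalin Gm39774 (0.928), Dync1i1 (0.921) and Mccc2 (0.92). No gene was in both sets of 5, and these correlations are given as descriptions over 12 libraries that share groups.

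Of 40 other lipocalin and major urinary protein genes found in the files, few were abundant in the nose. The other 19 Mup genes were low, with 13 of them listed at 0 in all 36 libraries and 18 at no more than 1 FPKM, and the highest value was 1.85 FPKM for Mup6. With 50-base reads from near-identical copies, values of these Mup genes are uncertain. Besides Obp1a and Obp1b, a mean of 10 FPKM in at least 1 tissue was reached by Gm39773 (listed as Lcn16, 996 ± 177 FPKM in VNO and 69.9 ± 18.8 in MOE), Gm39774 (listed as Lcn17, 82.2 FPKM in VNO and 4.17 in MOE), Gm5938, the siderophore binding Lcn2 (19.6 ± 5.3 in VNO), the prostaglandin synthase gene Ptgds (463 ± 39 in OB) and Apod, which encodes apolipoprotein D (163 ± 28 in MOE).

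In that list 11 genes were tested in MOE, and Gm5938 was the single one called, higher in females. Gm5938 (listed as Obp6) lies at chrX:75370806-75375742 between Obp1a and Obp1b. In MOE it was 53.0, 121 and 71.0 in SF pools, 30.4, 13.5 and 20.1 in SM pools, 55.3, 105 and 95.4 in CF pools and 30.3, 36.4 and 19.0 in CM libraries. All 6 female libraries (53.0 to 121 FPKM) were above all 6 male libraries (13.5 to 36.4 FPKM), as for 0.0582% of all genes tested. The difference was 1.73 ± 0.25 over both housings (limma adjusted p = 0.00335), 1.90 ± 0.35 between SF and SM (adjusted p = 0.0471) and 1.56 ± 0.35 for CF against CM (adjusted p = 0.473). Over both housings it stayed above 1.5 with each library left out, with an adjusted p of 0.0656 without MOE-CM3. Its neighbours Obp1a and Obp1b had differences of 0.43 ± 0.39 and 0.56 ± 0.41 over both housings (adjusted p = 1 for both). In VNO, 10 genes of the list were tested and 0 were called.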

How the data were processed

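RNA was measured in 36 libraries (3 tissues, 4 groups, 3 pools per group), sequenced as read pairs of 50 bases after depletion of ribosomal RNA. The authors merged lanes, aligned reads with TopHat2 2.1.0 and quantified RefSeq transcripts on mm9 with Cufflinks 2.2.1.0 (versions from the submitters' processing notes), and the deposited values are FPKM with 95% confidence limits. The strand setting of the quantification is not given in the sources used here.

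RefSeq accessions were matched to symbols for 99.73% of entries in each library through a RefSeq gene table (GRCm38.p6) and GENCODE M21, and FPKM was summed by gene. Fragments were estimated from the confidence limits, by dividing FPKM by its standard error and squaring the result, with a floor of 3 fragments. Such estimates reflect counting error alone, since no molecular identifiers were used to tell molecules from their copies. Levels across tissues come from slightly different transcript lists, with 40150 entries in MOE and 40008 in VNO and OB.

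Differences between groups were tested in R 4.3.3 with limma 3.58.1 (lmFit, eBayes with a trend) on log2(FPKM + 0.5), keeping genes that averaged 0.5 FPKM or more, in 1 fit of the 12 libraries per tissue, or of all 36 libraries between tissues. P-values were adjusted by Benjamini-Hochberg over all genes tested, and a gene was called at an adjusted p under 0.05. Differences on this scale understate the change of low genes. The fits were tested on simulated data for SF against SM in MOE, with 200 changed genes. At a log2 change of 1, 62.5% of these were recovered and 9.42% of calls were false. At a log2 change of 2, the values were 96.5% and 2.53%. The simulated noise was independent between genes and held no library that stood apart, unlike these data. Pairs of genes were correlated with two-sided permutation tests of 100000 resamples, and sexes were compared by exact permutation for ratios of members (Python 3.11.15, numpy 2.4.6, pandas 2.3.3, scipy 1.17.1; figures with matplotlib 3.10.9; coding alignments with Biopython 1.88). Alternatives were pseudocounts of 0.1 and 1, no filter, quantile and upper quartile scaling, library weights, the replicate number as a block, fits of 6 libraries, other denominators of shares, and each library left out.

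The coding stretch of 1 member is not reported here. Members and gene lists were chosen with earlier results of these data known. The genes named are all members, the listed lipocalins and Mups that were called or reached a mean of 10 FPKM in a tissue, the 5 genes most like Obp2a in MOE and in VNO, and markers above all other libraries in a library that stood apart.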

Additional observations from a re-analysis of the deposited data

How the results depend on the processing

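All 7 members remained called in the 3 comparisons between tissues under every alternative run, and in the 18 comparisons within tissues the count of members called stayed at 0 except as follows. With library weights, the SF against SM count in MOE was 3 (Mup5 -2.72, Mup4 -1.29 and Lcn4 0.77; 13.2% of all genes were called), that of the interaction 2 (17.6%) and that of SF against CF 1 (16.2%). With each library left out, the counts ranged from 0 to 1 between SF and SM, between SF and CF and between females and males in MOE, where the 1 was Mup5 without MOE-SF2, and from 0 to 1 between SF and SM in OB, where the 1 was Mup5 without OB-SM3 (-2.71, limma adjusted p = 0.0254, with 0.0469% called); Mup5 passes the filter in OB only through OB-SM2, so that this call does not count as support. With each library left out, the SF minus SM difference in MOE ranged from -3.01 to 0.13 for Mup5 and from -1.27 to 0.40 for Mup4, and the SF minus CF difference of Mup5 from -2.37 to 0.77. The reversed values were 0.0437 and 0.1295 (Mup5, SF against SM), 0.3986 and 0.264 (Mup4, SF against SM) and 0.687 and 0.7728 (Mup5, SF against CF), without MOE-SF1 and MOE-SF3 in turn, which leaves MOE-SF2 and 1 other SF library. Of all member differences, 10 of 42 in MOE, 19 of 42 in VNO and 11 of 30 in OB changed sign under at least 1 alternative.

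Gm5938 kept its direction in all alternatives. Between SF and SM its limma adjusted p was 0.0505 with a pseudocount of 1, 0.306 without a filter, 0.113 and 0.111 with quantile and upper quartile scaling and 0.247 in a fit of 6 libraries. With each library left out it was 0.0194 to 0.354, above the threshold without MOE-SF2, MOE-SF3, MOE-SM2, MOE-SM3 or MOE-CM3. Over both housings its adjusted p was 0.0650 without a filter. The sex difference of the Obp2a to Obp2b ratio, an alternative chosen after seeing the data, was -0.74 from estimated fragments and -0.75 to -0.66 with each library left out.

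With protein-coding entries as the denominator, the share of the 7 genes was 10.2% in MOE-SF2, a median of 4.01% in the other MOE libraries and a median of 26.2% in VNO; with estimated fragments it was 5.11% in MOE-SF2. Without the 2 farthest libraries, 5 of 21 pairs in MOE had an adjusted p under 0.05, in place of 11, with fewer libraries in the test.

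The labels do not say that replicate numbers pair the samples, and over all genes same-numbered libraries resembled each other weakly. Deviations of same-numbered libraries from their group means correlated by 0.025 on average in MOE, 0.065 in VNO and 0.004 in OB over 18 pairs each, with negative pairs in each tissue. For differently numbered libraries the averages were lower in each tissue, at -0.012, -0.032 and -0.002 over 36 pairs each. With the replicate block, 0 members were called within tissues and 7 between tissues, and the count of all genes called went from 14 to 18 between SF and SM and from 7 to 11 between SF and CF in MOE. For some members the block reduced the error. The standard error of Mup5 between CF and CM in VNO went from 1.503 to 0.793 (difference -2.58, unadjusted p in limma from 0.112 to 0.00888, adjusted p 0.860 with the block), and between SF and SM in OB the members at an unadjusted p under 0.05 went from 4 to 5. Depth limits the OB values, where 3 fragments of Mup4 correspond to about 0.183 FPKM.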

Other observations

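Libraries with the replicate number 2 often held the highest level within their group. For Lcn11 this was so in 11 of 12 groups over the 3 tissues, for Mup5 in 10, for Mup4 and Obp2a in 9 each, for Obp2b in 7, for Lcn3 in 6 and for Lcn4 in 5. Some OB groups in these counts rest on 3 or fewer estimated fragments. Lcn11 had 1 fragment in OB-SF2 and 0 in OB-SF1 and OB-SF3. Lcn3 was highest in OB-SM2, OB-CF2 and OB-CM2 with 1, 3 and 2 fragments. For Lcn11 and for Mup5 the count was 3 of 4 groups in MOE and 4 of 4 in VNO. If each of 3 replicates were highest equally often the count would be 4 of 12, and over 14631 genes the median was 5. Of those genes, 0.0889% had 11 or more such groups, 0.752% had 10 or more, 3.38% had 9 or more, 24.5% had 7 or more, 43.6% had 6 or more and 63.5% had 5 or more, so that Lcn3 and Lcn4 were near the level of all genes. By the paper, the 3 tissues were taken from each mouse, so that the 12 groups are not independent. Libraries of a sex and housing with the same number also carried the same index sequence in all 3 tissues. The labels do not say whether libraries with the same number pooled the same mice or were handled together, and the part of the number in these values was not tested. This count was made after the values had been seen.

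The gene pairs differed in how well they held a fixed ratio across tissues. Obp2a to Obp2b ranged from 1.63 to 3.55 in MOE and from 1.23 to 1.69 in VNO, whereas Mup4 to Mup5 ranged from 2.04 to 19.2 in MOE and from 0.129 to 19.3 in VNO. The VNO ranges differ in precision. Obp2a and Obp2b had at least 82067 estimated fragments each in every VNO library. Mup4 and Mup5 had 4 each in VNO-SF3, and the 19.3 of VNO-SM1 rests on 18 fragments of Mup5. The 0.129 of VNO-CM2 rests on 79.1 and 640. In OB, where 3 libraries had 3 or more fragments of both genes, Obp2a to Obp2b ranged from 1.31 to 3.12, with the highest value in OB-SM2.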
